A study of Drosophila melanogaster
Mus musculus with 21 samples.

Results

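The nuclear RNA of untreated mouse embryonic stem cells was described in both engineered lines of the series, PRC1deg and PRC2deg. These are 6 of the 21 libraries, 3 untreated libraries per line. Both lines derive from E14 cells and were grown in serum with leukaemia inhibitory factor. PRC1deg cells carry Rosa26::Tir1, Ring1A-/- and AID-Ring1B: the label gives both copies of the Ring1 gene as knocked out, RING1B bears an auxin-inducible degron, and the plant receptor Tir1 that the degron needs is placed at Rosa26. PRC2deg cells carry Pcgf2-HaloTag and dTAG-Suz12, a degron on SUZ12 that answers to dTAG-13. The libraries described here had neither auxin nor dTAG-13. Of the remaining libraries, only those of PRC1deg after 2 or 24 h of auxin enter, through the authors' fold changes at the end. The line, the clone, the library kit (a directional NEBNext Ultra kit for PRC1deg, its Ultra II successor for PRC2deg) and the read length (80 bp against 40 bp) go together, so their parts in any difference below cannot be told apart.

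Nuclear RNA holds transcripts still attached to their genes and unspliced precursors beside RNAs that stay in the nucleus, so it reads transcription more closely than cytoplasmic RNA does. Embryonic stem cells keep the factors Pou5f1, Sox2 and Nanog active while Polycomb complexes hold developmental genes low: PRC1 ubiquitinates histone H2A and PRC2 methylates histone H3. Stem cells grown in serum are known to vary between a naive state, marked by genes such as Klf4 and Tbx3, and states closer to the later epiblast.

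The authors deposited 1 mean per line and gene, and 20633 transcript entries were present for both lines, with 19402 distinct symbols. The sizes deposited with the entries are whole-gene lengths, introns included. For comparisons between the lines, values are given as scaled reads: PRC2deg was put on the PRC1deg scale with the median of 7687 entries that had 500 or more reads in both. For comparisons between genes, values are given as a level per kilobase, where 1 is the median of those entries. The means turned out to be exact sums of whole reads of 3 libraries, each read with a fixed weight, and 18294 entries could be separated into the 6 libraries. The libraries carry no replicate number and are called library 1, 2 and 3 in order of that weight. An entry with many reads in a line kept only the authors' mean there, as Nanog did in PRC1deg. Library values are given without a test, and in bulk RNA fewer cells expressing a gene and less RNA per cell cannot be told apart.

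The separated entries held 10881457 to 17617716 whole reads per library. Logarithmic library values correlated at 0.85 to 0.97 between libraries of a line and at 0.66 to 0.75 between lines. These values came from 5354 separated entries with 500 or more reads in both lines, which are not independent of each other. Entries with fewer reads, and those with too many to be separated, were left out, which narrows the range of levels. Over the 13059 symbols compared below, the logarithmic means of the lines correlated at 0.92. The third PRC2deg library stood apart: of 6614 symbols with 500 or more reads, 193 lay over 2-fold below both other libraries there, against 0 in each of the other PRC2deg libraries. In PRC1deg, library 1 lay over 2-fold above both others for 44 of 5825 symbols.

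The stem cell identity of the cells was checked first. All 7 measured stem cell markers had 50 or more reads in both lines, and their summed level per kilobase was 197 in PRC1deg and 111 in PRC2deg. By the same measure the 3 mesoderm markers T, Mixl1 and Mesp1 summed to 0.0840 and 1.18, the 3 measured trophoblast markers to 0.0214 and 0.229, and the 4 primitive endoderm markers to 0.245 and 0.136. The 3 neural markers summed to 0.242 and 0.262, and the 8 fibroblast or feeder markers to 1.85 and 3.08. Stem cell markers thus stood far above the markers of other cell types in both lines.

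The most abundant nuclear transcript per kilobase in PRC1deg was Malat1, a long noncoding RNA of nuclear speckles, at 319 times the median level in PRC1deg and 381 times in PRC2deg. It also had the most reads, 148179 and 176838. The histone transcript Hist2h2bb stood at 247 and 219, the linker histone Hist1h1a at 135 and 139, the elongation factor Eef1a1 at 195 and 124, the chaperone Hsp90ab1 at 187 and 101, and the cytoskeletal actin Actb at 108 and 82.5. Very short noncoding RNAs led the PRC2deg ranking: Rmrp, the RNA of the RNase MRP ribonucleoprotein, stood at 1415 against 199 in PRC1deg. Counted by reads instead of level, long genes came forward. Jarid2, a substoichiometric PRC2 subunit of 190870 bases, had 78821 reads in PRC1deg and 85389 in PRC2deg, and Tet1, a DNA demethylase, had 59310 and 40610.

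The reads were spread over many genes. The top 100 symbols took 11.4% of reads in PRC1deg and 11.8% in PRC2deg, and the top 1000 took 44.7% and 46.4%. In PRC1deg 7920 symbols had 500 or more reads and 1424 were listed at 0. In PRC2deg the numbers were 7696 and 1519, counted on its own reads before they were put on the PRC1deg scale. The 466 olfactory receptor genes, which act in the nose, summed to 198 scaled reads in PRC1deg and 319 in PRC2deg. Of 39 Hox genes, which pattern the body axis, 3 had 50 or more reads in either line, and 2 were listed at 0 in PRC1deg and 3 in PRC2deg. Hoxc13 had 95.2, 171 and 115 scaled reads in the PRC1deg libraries and 24.2, 37.2 and 70.1 in the PRC2deg libraries. Hoxb9 was likewise higher in every PRC1deg library. By the means, both reached 50 scaled reads only in PRC1deg.

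The lines were then compared gene by gene. Across 13059 symbols with 50 or more scaled reads in either line, the log2 ratio of PRC1deg over PRC2deg, with 10 reads added to each, had a median of 0.08, and 90% of symbols lay between -1.48 and 1.30. Ratios past 2-fold were found for 1242 symbols higher in PRC1deg (9.51%) and 1298 lower (9.94%). These shares are the background for every list count below. A symbol under 50 scaled reads in 1 line entered only through the other. For such a symbol the filter itself favours a ratio towards that other line. Over all transcript entries the counts were 1377 of 14064 higher (9.79%) and 1416 lower (10.1%). Beyond 4-fold there were 133 symbols higher and 346 lower, so the far differences lay more often on the PRC2deg side. Of the 10860 compared symbols that could be separated into libraries, 1149 were past 2-fold higher and 1171 lower. Among them, 1143 were higher with every PRC1deg library above every PRC2deg library (10.5% of the 10860). On the lower side, 1042 had no overlap (9.59% of the 10860). Ratios past 2-fold thus mostly came with libraries apart. At any fold, 3638 symbols had no overlap on the higher side and 2349 on the lower. The plot of both lines shows where the gene groups described below fall.

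**Figure D1:**
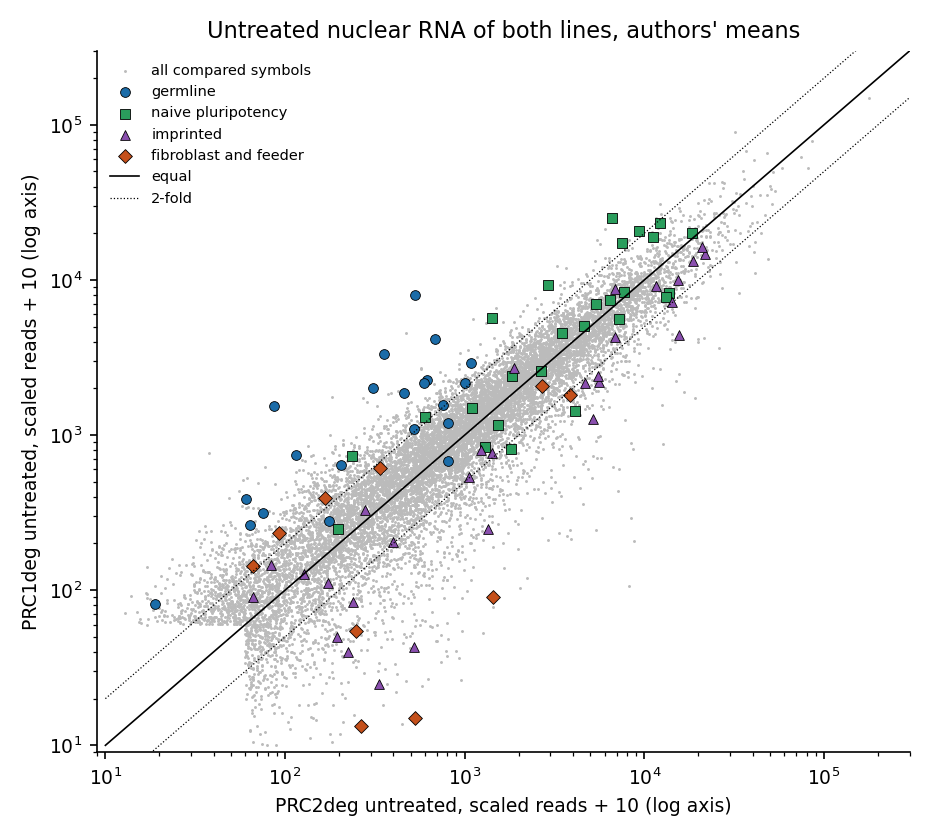
Scaled reads plus 10 of untreated PRC1deg (vertical) against untreated PRC2deg (horizontal) for 13059 symbols on log axes, from the authors' means, with 4 gene lists marked and dotted lines at 2-fold. Germline genes (circles) lie mostly above the upper line, imprinted genes (triangles) on or below the diagonal for the most part, and 3 fibroblast markers far below it.

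Genes that the lines carry in altered form were read first. Ring1 had 222, 156 and 221 scaled reads in the PRC1deg libraries and 60.5, 97.9 and 91.7 in the PRC2deg libraries, so the line labelled Ring1A-/- had more Ring1 reads. Which part of Ring1 is deleted is not given in the sources used here, and reads over the whole gene do not check the deletion. Rnf2, the gene of RING1B, had a log2 ratio of -0.13 and overlapping libraries. Suz12 had 16956 scaled reads in PRC1deg and 5686 in PRC2deg, where the gene carries the degron, a log2 ratio of 1.57. Pcgf2, tagged in PRC2deg, had a log2 ratio of 0.45 with overlapping libraries. The noncoding transcript Gt(ROSA)26Sor of the Rosa26 locus, where PRC1deg carries Tir1, had 385, 308 and 361 scaled reads in PRC1deg and 1628, 1851 and 1459 in PRC2deg. Its neighbours Setd5 and Thumpd3 had log2 ratios of -0.39 and -0.09.

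The other Polycomb genes were compared by complex, where 9.51% of all symbols were past 2-fold higher in PRC1deg and 9.94% lower. Of 12 measured PRC2 genes only Suz12 passed 2-fold, and the median log2 ratio was 0.03. Eed, the subunit that reads methylated H3, had 8162 and 8184 scaled reads, and the catalytic subunit Ezh2 had 7479 and 8041. Epop, a substoichiometric subunit, had the highest level per kilobase of the PRC2 genes, 14.3 in PRC1deg and 17.9 in PRC2deg. Of 18 variant PRC1 genes, 1 was past 2-fold higher in PRC1deg and 0 lower: Bcorl1, a paralogue of the corepressor Bcor, with 1472, 1601 and 1884 scaled reads against 657, 725 and 394. Bcor itself ran at -0.80 and the CpG island-binding subunit Kdm2b at -0.79, both with no overlap. Of 9 compared canonical PRC1 genes, 2 were past 2-fold higher, the chromobox gene Cbx2 (log2 ratio 1.12) and Scml2 (1.14), and 0 lower. The ring-finger partner Bmi1 had a log2 ratio of -0.86, with 194, 209 and 203 scaled reads in PRC1deg and 440, 420 and 275 in PRC2deg. With libraries weighted alike and without the third PRC2deg library, Scml2 came to 0.89 and Bmi1 to -1.05.

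**Figure D2:**
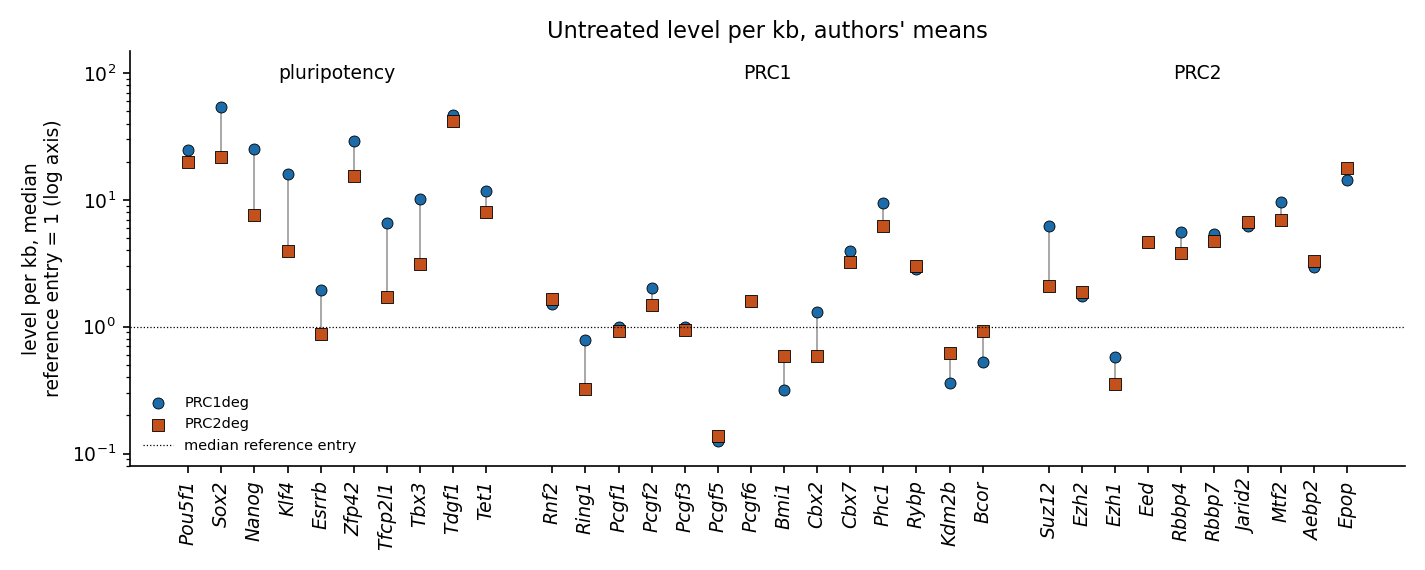
Level per kilobase (log axis, 1 is the median reference entry) of pluripotency, PRC1 and PRC2 genes in untreated PRC1deg (circles) and PRC2deg (squares), from the authors' means. Sox2, Nanog, Klf4, Tfcp2l1, Tbx3 and Suz12 show wide gaps between the lines, whereas Eed, Pcgf6 and Rnf2 nearly coincide.

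Within the pluripotency network, the lines differed gene by gene. Pou5f1 (Oct4) had 7785 scaled reads in PRC1deg and 6233 in PRC2deg, a log2 ratio of 0.32. Nanog had 11958 and 3639 (1.71) and Sox2 8804 and 3537 (1.31). Among 26 naive pluripotency genes, 7 were past 2-fold higher in PRC1deg and 2 lower, with a median of 0.35. The shares over all symbols were 9.51% higher and 9.94% lower. Klf4, a target of leukaemia inhibitory factor signalling, had 5678 scaled reads in PRC1deg and 1337, 948 and 2014 in the PRC2deg libraries (log2 ratio 2.00). Tfcp2l1, another factor downstream of that signal, had a ratio of 1.93, Tbx3 1.68 and the orphan receptor Esrrb 1.15.

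Prdm14, a repressor of primed genes, had 674, 850 and 693 scaled reads in PRC1deg and 248, 214 and 224 in PRC2deg, with no overlap. Socs3, the feedback inhibitor that STAT3 switches on, had 2199, 1480 and 1689 against 590, 499 and 1086. In the other direction the TGF-beta family member Gdf3 had 2054, 963 and 1453 scaled reads in PRC1deg against 4943, 4087 and 3427. Utf1 had a ratio of -1.16, but its libraries ranged from 410 to 1898 in PRC1deg and overlapped those of PRC2deg. Spp1, Nr5a2, Tdgf1 and Lifr stayed within 2-fold. Signs within the naive list were thus mixed, with 18 ratios above 0 and 8 below.

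The germline and meiosis genes formed the list with the highest median ratio among those with 5 or more compared members. Of 21 genes, 18 were past 2-fold higher in PRC1deg and 0 lower, with a median log2 ratio of 2.03 against 0.08 over all symbols. The shares over all symbols were 9.51% higher and 9.94% lower. Stra8, which germ cells need to enter meiosis, had 1558, 1671 and 1466 scaled reads in the PRC1deg libraries and 58.5, 68.6 and 102 in the PRC2deg libraries, a log2 ratio of 4.15. Every PRC1deg library exceeded every PRC2deg library by more than 10-fold. Tex11, an X-linked meiotic gene, had a mean of 7987 scaled reads in PRC1deg and 504, 464 and 592 in the PRC2deg libraries (3.93).

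Genes of the piRNA pathway, in which small RNAs guide silencing of transposons in germ cells, were among them. Piwil2, a PIWI protein, had 2694, 3422 and 3558 scaled reads against 315, 304 and 425. Mov10l1, an RNA helicase of the pathway, had 3428, 4719 and 4170 against 757, 490 and 809. Mael had a ratio of 1.87 and the helicase Ddx4 also 1.87, while Tdrd1 (0.68) stayed within 2-fold and its libraries overlapped. The RNA-binding protein Dazl had 1901, 2385 and 1906 scaled reads in PRC1deg and 378, 279 and 256 in PRC2deg.

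Genes of the meiotic chromosome were measured too. The synaptonemal complex gene Syce1 had 1911, 1854 and 1888 scaled reads in PRC1deg against 467, 471 and 417 in PRC2deg (log2 ratio 2.03). Sycp3 had a ratio of 1.05 and Sycp1 0.56, and the meiotic cohesin gene Smc1b had 1.41. Hormad1, a protein of the meiotic chromosome axis, was the exception in sign at -0.26 with overlapping libraries. Of the 20 list members that could be separated, 17 were past 2-fold higher by the authors' means. For 16 of these the libraries did not overlap, and the remaining one was Sycp2 at 1.07. No overlap was the rule there, with 1143 of all 1149 separable symbols past 2-fold higher. Leaving out any one library left 14 to 17 of the 20 past 2-fold. Per kilobase the list's median level was 0.645 in PRC1deg and 0.140 in PRC2deg, below the median reference entry in both.

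**Figure D3:**
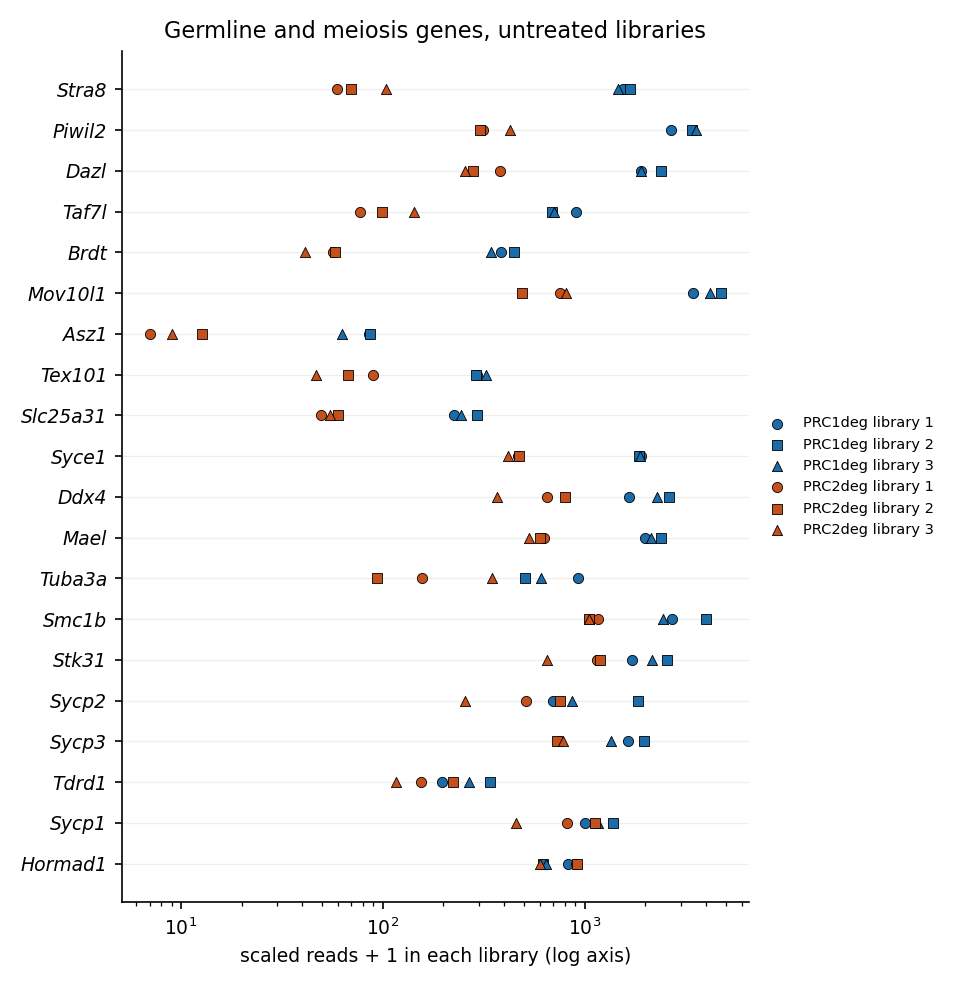
Scaled reads plus 1 (log axis) of the germline and meiosis genes that could be separated, in each untreated library of PRC1deg and PRC2deg, ordered by log2 ratio. The PRC1deg points lie to the right of the PRC2deg points for most genes, from Stra8 at the top to Sycp3, and the sets overlap for Sycp2, Tdrd1, Sycp1 and Hormad1.

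Among the 15 symbols with the highest ratios of all those with 500 or more scaled reads in either line, 6 belong to that list. Rbm44, an RNA-binding protein of germ cell bridges, had 1395, 2492 and 1530 scaled reads against 179, 139 and 205. Ctcfl, the testis paralogue of the insulator protein CTCF, had 635, 713 and 571 against 61.5, 67.6 and 72.8. The highest ratio of all belonged to the unnamed transcript 4933427D06Rik, with 798, 848 and 718 against 38.3, 25.5 and 21.6 (log2 ratio 4.35). Others were the retinoic acid carrier Crabp1 (3.09), the citrate transporter Slc13a5 (2.68), the homeobox gene Cux2 (2.50) and Igsf21 (3.27). Rhox10, a homeobox gene of the X-linked reproductive cluster, had 175, 97.9 and 133 scaled reads against 12.1, 4.90 and 5.39.

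On the PRC2deg side, some genes of the later epiblast and the primitive streak stood out. Of 17 compared formative and primed epiblast genes, 4 were past 2-fold lower in PRC1deg and 0 higher, with a median of -0.60. Among all symbols 9.94% were lower and 9.51% higher. Signs within this list were mixed, with 8 ratios above 0 and 9 below, and 13 genes stayed within 2-fold. Of the 4, Fgf5 reached 50 scaled reads only in PRC2deg by the means. Fgf5, a growth factor that marks the formative epiblast, had 29.6, 56.9 and 32.8 scaled reads in the PRC1deg libraries and 858, 1115 and 421 in PRC2deg (log2 ratio -4.07). Pou3f1 (Oct6) had 92.6, 82.7 and 84.5 against 444, 522 and 313. Zic5 and Fgf15 both had ratios of -1.74. Otx2, another factor of this state, ran the other way at 0.70, and Dnmt3a and Dnmt3b, both DNA methyltransferases, had 0.61 and -0.84.

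Of 7 compared mesoderm and primitive streak genes, 5 were past 2-fold lower in PRC1deg and 0 higher. T (Brachyury), the defining factor of the streak, had 23.2, 19.6 and 8.62 scaled reads in PRC1deg and 559, 1089 and 32.4 in PRC2deg (log2 ratio -4.59). The third PRC2deg library was near the PRC1deg range. Wnt3, which starts streak formation, had 21.9, 35.6 and 31.0 against 941, 1198 and 178, and Fgf8 had 7.72, 5.34 and 5.17 against 214, 418 and 45.9. Lefty1, an inhibitor of Nodal signalling, had 1869, 729 and 626 scaled reads in PRC1deg and a mean of 8408 in PRC2deg. With libraries weighted alike, 3 of the 6 separable members were past 2-fold lower, and 5 were without the third PRC2deg library. Without the second PRC2deg library, the highest of its line for Fgf8, that gene's ratio came to -3.12, against -3.88 with libraries weighted alike. Leaving out 1 library at a time gave T a ratio from -4.94, without the third PRC2deg library, to -3.49, without the second. The Wnt target Sp5 had 251, 245 and 17.5 scaled reads in PRC2deg and 0, 0 and 3.45 in PRC1deg. Other Wnt targets were higher in PRC1deg, Tcf7 by 1.44 and Nkd1 by 1.38 on the log2 scale, and Axin2 stayed within 2-fold at 0.55.

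Lists of other early lineages held members on both sides, where 9.51% of all symbols were past 2-fold higher in PRC1deg and 9.94% lower. Of 6 compared trophoblast genes, 3 were past 2-fold lower in PRC1deg and 0 higher. Those 3, Cdx2, Gata3 and Krt7, reached 50 scaled reads only in PRC2deg by the means, so the filter favoured ratios below 0. The other 3 ratios were at 0.00 for Tfap2c, 0.65 for Tfap2a and 0.72 for Plet1. Cdx2, a trophoblast and posterior factor, was listed at 0 in PRC1deg and had 56.5, 127 and 18.9 scaled reads in PRC2deg. Gata3, a trophoblast factor, had 34.7, 16.0 and 29.3 against 112, 118 and 51.2, while Plet1, a trophoblast surface protein, had 369, 295 and 390 against 241, 216 and 190.

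Of 10 compared primitive endoderm genes, 2 were past 2-fold higher in PRC1deg and 1 lower, with 6 ratios above 0 and 4 below. The factor Gata4 had 212, 409 and 318 scaled reads in PRC1deg and 121, 166 and 171 in PRC2deg, a ratio at the 2-fold limit (1.01, and 0.99 with libraries weighted alike). The basement membrane genes ran the other way in part: Sparc, which had 3285 against 7931, was at -1.27 and the laminin chain Lamb1 at -0.88. Without the first PRC1deg library, or without the second PRC2deg library, 3 of the 7 separable members were past 2-fold higher, against 1 with libraries weighted alike. Of 6 compared neural genes, 2 were past 2-fold lower and 0 higher, with a median of 0.35. Nes, an intermediate filament of neural progenitors, was at -1.56 and the eye and brain factor Pax6 at -1.25, whereas Tubb3, a neuronal tubulin, was at 0.60 and the factor Neurod1 at 0.52. Without the second PRC2deg library, 1 of the 5 separable neural genes was past 2-fold lower.

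The fibroblast and feeder list holds matrix and contractile genes. Over all symbols, 9.94% were past 2-fold lower in PRC1deg and 9.51% higher. Of 10 compared members, 5 were past 2-fold lower in PRC1deg and 3 higher, with a median of -0.73. Among the 5, Acta2, Col3a1 and Col1a2 reached 50 scaled reads only in PRC2deg, so the filter favoured ratios below 0. Acta2, smooth muscle actin, had 9.0, 5.34 and 3.45 scaled reads in PRC1deg and 638, 727 and 202 in PRC2deg. Col1a1, the type I collagen chain, had 105, 78.3 and 74.1 against 1780, 1699 and 856, and Col3a1 had 1.29, 0.890 and 5.17 against 305, 348 and 113. The fibroblast markers Lum and Dcn were listed at 0 in PRC1deg, and in PRC2deg Dcn had 42.4, 39.2 and 18.9 scaled reads and Lum 0, 15.7 and 0. Summed over all 8 fibroblast markers, the PRC1deg libraries held 690 to 901 scaled reads and the PRC2deg libraries 1803 to 3427. The direction was not shared by all 8. In PRC1deg the means of Col1a1, Col1a2, Col3a1 and Acta2 were 80.4, 44.9, 3.29 and 4.94, beside a marker sum of 738. Most of that sum came from the markers Thy1 and Postn, which together had fewer scaled reads in PRC2deg. Pdgfrb, Fbln2 and Col6a2 were the list members past 2-fold higher in PRC1deg, at 1.33, 1.23 and 1.11 on the log2 scale. Of the 10 ratios, 4 were above 0. Whether other cells contributed to these reads was not tested.

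The lowest ratio of all belonged to Thbs1, the matrix protein thrombospondin, with 113, 89.0 and 96.5 scaled reads in PRC1deg and a mean of 8186 in PRC2deg (log2 ratio -6.26). Tagln, a smooth muscle actin-binding protein, had 40.5, 33.8 and 25.9 against 1203, 1097 and 394, and the cytokine Csf1 had 12.9, 23.1 and 15.5 against 862, 842 and 170. The protocadherin Pcdh7 had 16.1, 18.7 and 15.5 against 922, 1759 and 93.1, and the phosphodiesterase Pde1a 24.4, 33.8 and 25.9 against 843, 1373 and 124. In Tagln, Csf1, Pcdh7 and Pde1a the third PRC2deg library was the lowest of its line and still above every PRC1deg library. The second PRC2deg library was the highest for Pcdh7 and Pde1a, whose ratios without it came to -4.27 and -3.70.

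Of 10 cell adhesion genes, 7 were past 2-fold lower in PRC1deg and 0 higher, with a median of -1.55. Over all symbols, 9.94% were lower and 9.51% higher. Cdh2 (N-cadherin) had 397, 261 and 378 scaled reads in PRC1deg and 4087, 7145 and 2233 in PRC2deg, while Cdh1 (E-cadherin), the cadherin of stem cells, had means of 9706 and 21213 (log2 ratio -1.13). The tight junction genes Cldn4, Cldn6 and Cldn7 had ratios of -2.95, -2.45 and -3.46. Epcam, an epithelial adhesion molecule, had 2491, 1608 and 2074 against 6813, 5619 and 5886. Cdh3 and Itga6 stayed within 2-fold. Counts of adhesion genes past 2-fold were the same without any one library, 5 of the 7 that could be separated.

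**Figure D4:**
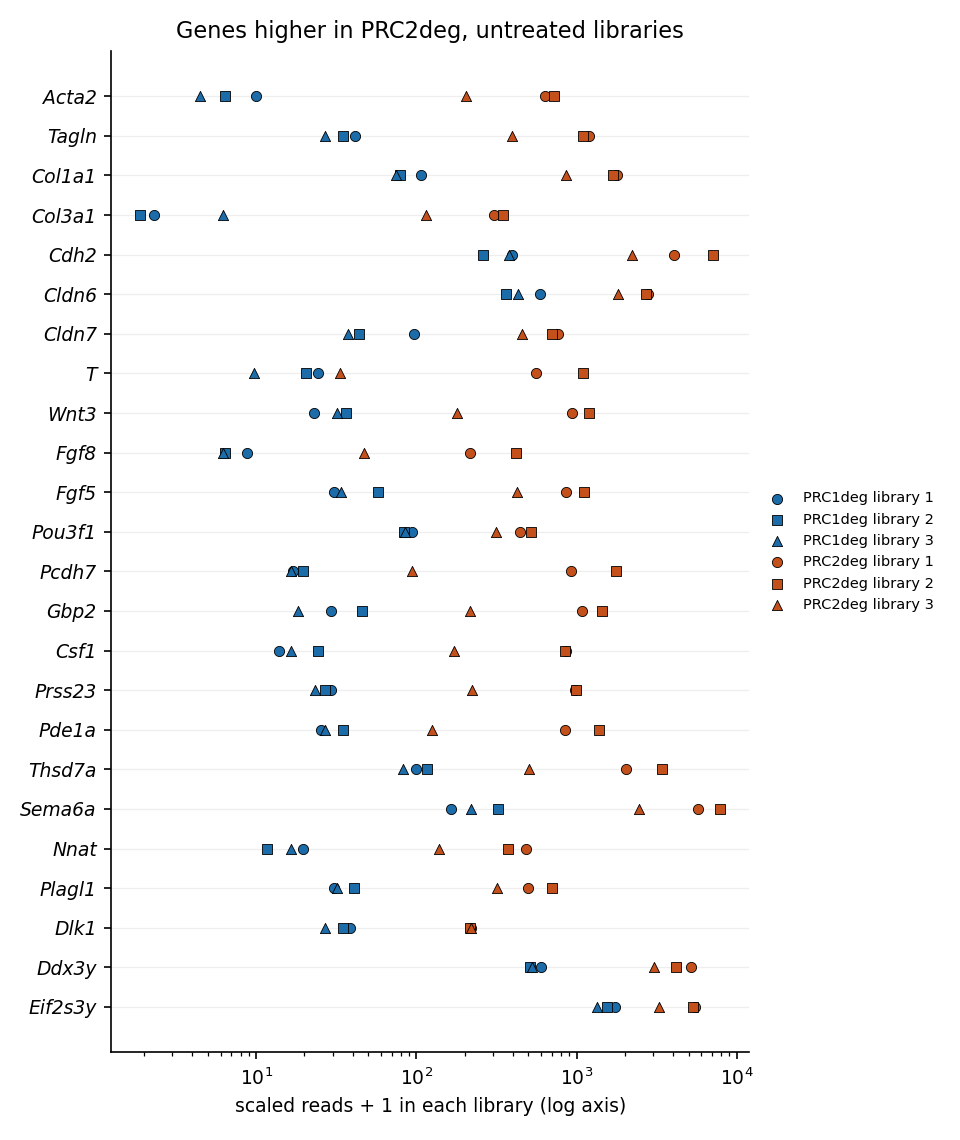
Scaled reads plus 1 (log axis) in each untreated library for 24 named genes with higher values in PRC2deg. All 3 PRC2deg points lie to the right of the PRC1deg points for each gene, and the third PRC2deg library (triangles) is the leftmost of its line for most of them, by far for T, Fgf8, Pcdh7 and Pde1a.

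Imprinted genes are expressed from 1 parental allele. Of 29 compared, 11 were past 2-fold lower in PRC1deg and 0 higher, with a median of -0.88, where 9.94% and 9.51% of all symbols were. Nnat had 18.7, 10.7 and 15.5 scaled reads in PRC1deg against 483, 372 and 138 in PRC2deg, and the zinc finger gene Plagl1 had 29.6, 40.0 and 31.0 against 497, 705 and 316. The growth inhibitor Phlda2 had 646, 106 and 164 against 1377, 1043 and 1643, and without the first PRC1deg library its ratio came to -3.24. From one imprinted cluster, Dlk1 had 37.3, 33.8 and 25.9 against 217, 215 and 217, and Mirg a ratio of -1.35, but the noncoding RNA Meg3 of the same cluster ran at 0.35 and Rian at -0.56. H19 (-1.96) and Igf2 (-1.53), neighbours with opposite parental expression, were both lower in PRC1deg. Of the 20 members that could be separated, 10 were past 2-fold lower with no overlap. Over all separable symbols past 2-fold lower, 1042 of 1171 had no overlap. When any one library was left out, 10 to 13 of the 20 members were past 2-fold. Several of these genes overlap antisense transcripts, and whether counting used strand is not given in the sources used here.

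Both lines held Y-linked transcripts, as the male E14 origin gives. Of 5 compared Y-linked genes, 4 were past 2-fold lower in PRC1deg and 0 higher, where 9.94% and 9.51% of all symbols were. Of the 4, Kdm5d reached 50 scaled reads only in PRC2deg. Ddx3y, an RNA helicase, had 601, 510 and 524 scaled reads against 5151, 4169 and 3060. Uty, a paralogue of the demethylase Kdm6a, had 2036, 2078 and 1786 in PRC1deg and a mean of 16505 in PRC2deg. Usp9y ran at -0.19 with overlapping libraries. At the X inactivation centre, Xist, the RNA that silences an X chromosome in female cells, had 18.0, 16.0 and 25.9 scaled reads against 135, 204 and 74.2. Its antisense gene Tsix had 7621 and 7420, a ratio of 0.04.

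Metabolic and stress genes were compared next, where 9.51% of all symbols were past 2-fold higher in PRC1deg and 9.94% lower. Of 16 hypoxia and glycolysis genes, 5 were past 2-fold higher in PRC1deg and 0 lower, with a median of 0.87. The mitophagy receptor Bnip3 had 1942, 1721 and 1946 scaled reads against 517, 411 and 477, and the oxygen-sensing hydroxylase Egln3 had 610, 750 and 633 against 163, 169 and 208. The glycolytic enzyme Aldoa ran at 1.32, whereas the glucose transporter Slc2a1 ran at -0.90. Of 17 amino acid response genes, 5 were past 2-fold higher and 1 lower: Chac1, a glutathione-degrading enzyme, had 370, 559 and 212 against 53.5, 39.2 and 91.7, and asparagine synthetase Asns ran at 1.93. Atf4, the factor that drives that response, ran at 0.23. Without the second PRC1deg library, the 13 separable members of that list gave 3 higher and 3 lower, against 3 and 1 with libraries weighted alike. Without the third PRC2deg library, 5 of the 7 separable hypoxia and glycolysis genes were past 2-fold higher, against 3. Of 36 compared proteasome subunits, 9 were past 2-fold higher in PRC1deg and 0 lower, led by Psmd2 at 1.64, with a median of 0.58. Among the 22 of them that could be separated, 4 were past 2-fold with libraries weighted alike and 1 was without the second PRC2deg library.

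The cholesterol synthesis and endoplasmic reticulum chaperone lists had medians below 0. For the counts that follow, the shares over all symbols were 9.94% lower and 9.51% higher. Of 16 cholesterol genes, 8 were past 2-fold lower in PRC1deg and 0 higher, with a median of -0.97. Msmo1, a sterol oxidase, had 2066, 2260 and 1844 scaled reads against 5015, 5770 and 4890, with no overlap. Of 14 chaperone genes, 4 were past 2-fold lower and 0 higher, and all 14 ratios were below 0: Hspa5 (BiP), the main chaperone of the reticulum, ran at -1.27 and Manf at -1.41. Of the 9 separable cholesterol genes, 2 were past 2-fold lower with libraries weighted alike, 4 without the first PRC1deg library and 3 without the first or the third PRC2deg library. Of 15 compared immediate early genes, 7 were past 2-fold lower and 1 higher. Junb had 170, 22.2 and 23.3 against 480, 416 and 769 (-4.11 without the first PRC1deg library), and Jun 89.4, 55.2 and 55.2 against 257, 268 and 409, while Fos ran the other way with 528, 530 and 315 against 191, 176 and 181. With libraries weighted alike, 3 immediate early genes were past 2-fold lower, and 6 were without the first PRC1deg library. None of 19 proliferation genes passed 2-fold, with a median of 0.59.

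**Figure D5:**
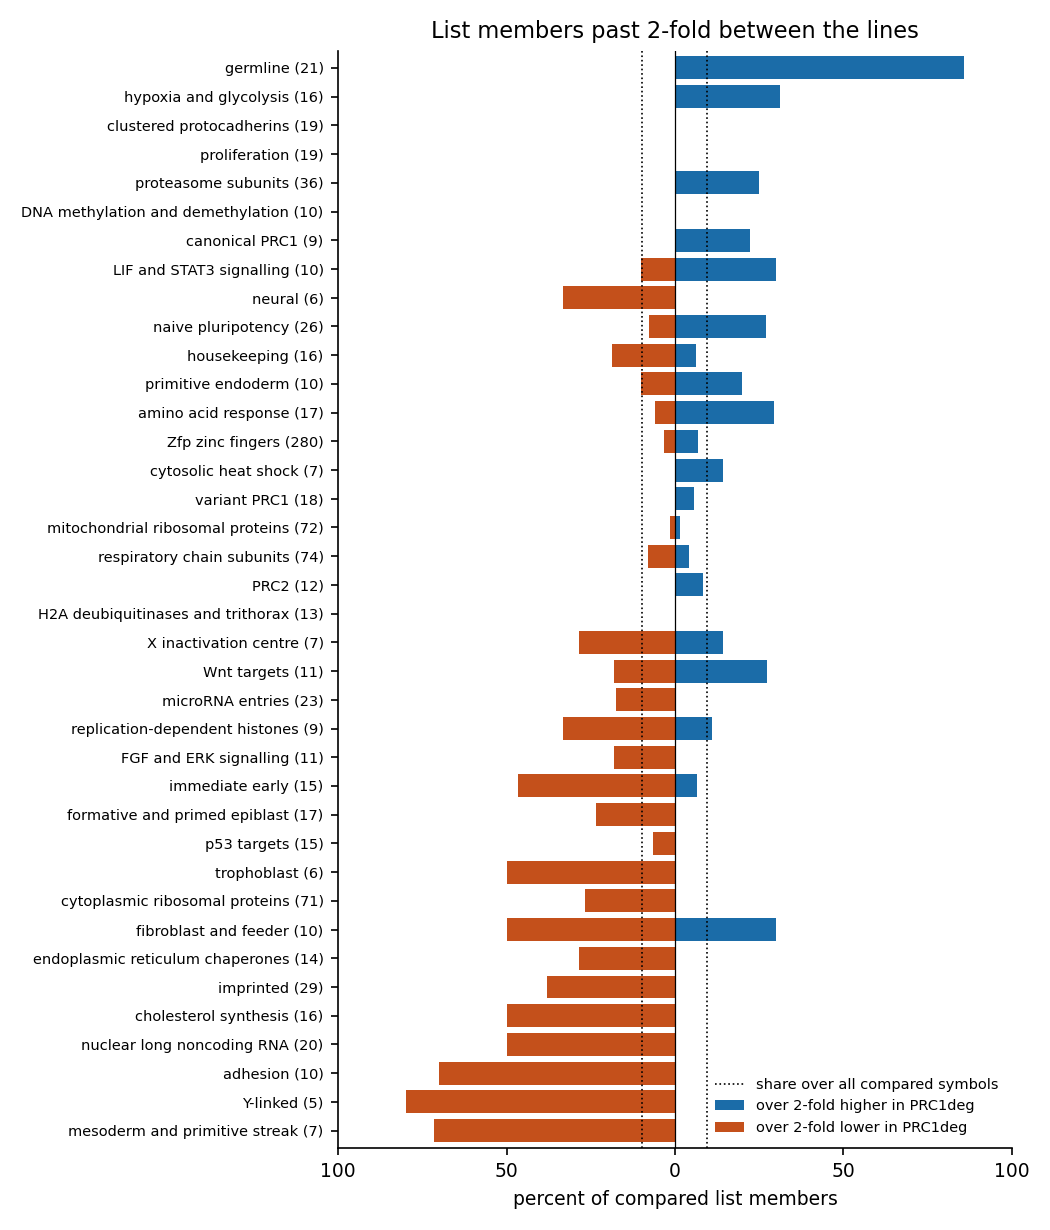
Percent of the compared members of each list with 5 or more that were past 2-fold higher (right) or lower (left) in PRC1deg, by the authors' means, with the number compared in brackets, ordered by median log2 ratio. Dotted lines mark the shares over all compared symbols, 9.51% and 9.94%; among the lists drawn, germline genes reach furthest on the right, and Y-linked, primitive streak and adhesion genes reach furthest on the left.

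The ratio differed between classes of gene length. In the shortest 20% of symbols, of 221 to 5296 bases, 18.7% of compared symbols were past 2-fold lower in PRC1deg and 8.86% higher, against 5.74% and 10.4% in the fourth length class (25439 to 58880 bases). In the longest class, of 58881 bases and more, the share lower was again above that of all symbols, 13.1% against 9.10% higher. Of 13 compared symbols under 500 bases, 76.9% were past 2-fold lower and 0% higher. The telomerase RNA Terc had 315, 174 and 169 scaled reads in PRC1deg and a mean of 8774 in PRC2deg (log2 ratio -5.41), and the small nucleolar RNA Snord17 had 739, 582 and 638 against 4438, 3024 and 6385. Rpph1, the RNA of RNase P, had 6779 scaled reads in the first PRC1deg library and 648 and 564 in the others. The short histone gene Hist4h4 showed the same split, 2292 against 187 and 197, and its libraries overlapped those of PRC2deg at 2757, 1845 and 1892. With libraries weighted alike Hist4h4 came to -1.27, and without the first PRC1deg library to -3.43 and without the second to -0.79.

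Lists with short members were compared next, and the part of length in their ratios was not tested. The nuclear long noncoding RNA list also holds long genes, such as Pvt1 of 212989 bases. Of 71 compared cytoplasmic ribosomal protein genes, 19 were past 2-fold lower in PRC1deg and 0 higher, with a median of -0.65. For this and the next lists, the shares over all symbols were 9.94% lower and 9.51% higher. Rps16 had 582, 229 and 374 scaled reads against 1724, 1491 and 1690, whereas Rpl4, with 26054 and 16342, ran at 0.67. Among the 53 separable members, 17 were past 2-fold lower with libraries weighted alike, 24 without the first PRC1deg library and 10 without the second. Of 20 nuclear long noncoding RNAs, 10 were past 2-fold lower and 0 higher, with a median of -1.05. The snoRNA host Snhg8 had 1078, 302 and 402 against 2820, 2202 and 1679, and Dancr, of 1254 bases, had 588, 262 and 431 against 3157, 2549 and 2776. Snhg11 (0.92) and Miat (0.29) ran the other way within 2-fold. Of 72 mitochondrial ribosomal protein genes, 1 was past 2-fold higher and 1 lower, with a median of 0.10. Of the 71 separable ones, 5 were past 2-fold lower without the first PRC1deg library, against 0 with libraries weighted alike.

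Counts in other lists were as follows, beside shares over all symbols of 9.51% higher and 9.94% lower. Of 280 zinc finger genes named Zfp, 19 were past 2-fold higher in PRC1deg and 9 lower, with a median of 0.17. Of 74 respiratory chain subunit genes, 3 were higher and 6 lower, and without the first PRC1deg library the 65 separable ones gave 1 higher and 8 lower, against 4 and 5 with libraries weighted alike. Of 15 p53 target genes 0 were higher and 1 lower, and without the first PRC1deg library 3 of the 8 separable ones were lower, against 1. Among 10 genes of DNA methylation and demethylation and among 13 H2A deubiquitinase and trithorax genes, 0 passed 2-fold. The 19 compared clustered protocadherins, neuronal cell-surface proteins whose entries overlap and share reads, had a median of 0.82 with 0 past 2-fold. Of the 8 separable ones, 4 were past 2-fold higher without the second PRC2deg library and 2 without the first, and without the third 1 was past 2-fold lower.

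The untreated PRC1deg libraries are also the control of the authors' auxin tables, so the values below share samples with the ratios above and are only set side by side. A symbol counts as called where the authors' adjusted p is under 0.05 and the fold over 1.5. At 2 h of auxin, 2 of 21 germline genes were called higher in the authors' deposited table, where 4.95% of compared symbols were, and at 24 h 10 of 21, where 9.95% were. Stra8 had log2 fold changes of -0.04 (2 h) and 0.68 (24 h), Piwil2 0.29 and 0.86, and Ddx4 0.87 and 1.62 in the authors' deposited table.

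Some genes low in PRC1deg and high in PRC2deg had unlike auxin values. Those named here were picked after the values were seen, and how many of all such genes were called was not counted. Fgf5, with a line ratio of -4.07, had log2 fold changes of 1.90 after 2 h of auxin and 1.80 after 24 h in the authors' deposited table. Pcdh7 (-5.18) had 2.05 and 2.66, Hs6st2 (-4.85), a heparan sulfate sulfotransferase, 2.05 and 3.41, and Cdh2 (-3.67) 2.75 and 2.48 in the authors' deposited table. By contrast Acta2 (-5.15) had 0.16 and 0.22, Tagln (-4.47) 0.27 and 0.33, Col1a1 (-3.99) -0.14 and 0.24, and Ddx3y (-2.91) 0.18 and 0.29 in the authors' deposited table. Among genes high in PRC1deg, Chac1 (2.27) had -2.59 and -2.41, and 4933427D06Rik (4.35) -0.12 and 0.09, in the authors' deposited table.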

How the data were processed

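Nuclear RNA with Drosophila SG4 spike-in cells was depleted of ribosomal RNA and read as paired ends, per the labels' protocols. Per the submitters' processing notes, DESeq2, STAR, Bowtie2, bedtools and SAMtools were used, with dm6 and mm10 as builds. The sources used here give neither versions nor strand settings. In 5 tables, the authors deposited for each entry a log2 fold change, an adjusted p-value and an untreated mean. That mean is headed RPKM, but as deposited by the authors it is a signal: it equals normalised reads per kilobase of whole gene, and is the same in the 4 auxin tables for all 20633 entries. It was deposited as 1 mean per line, so no test of the lines was made.

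Reads are the mean times size over 1000. Per symbol, the entry with the most reads was taken. The weight of 1 read in each library was read from entries with few reads, and each value was searched for sums of whole reads that match it to the 15 printed digits. Entries with under 0.01 expected chance sums were split, 18411 in PRC1deg and 19257 in PRC2deg; each had exactly 1 sum. Each library was then scaled by its median. The split was chosen after seeing the data, and the ratio and the split were tested on simulated data. Symbols differed between the tables for 194 entries, where the PRC1deg one was used.

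Members and lists were chosen with earlier results of these data known. Named genes are the engineered genes, the 10 highest by reads and by level, the 15 highest and 15 lowest ratios among symbols with 500 or more reads, 2 members with most reads and up to 4 with the largest ratio per list, and core pluripotency genes; other members were named after their values were seen. Python 3.11.15, numpy 2.4.6, pandas 2.3.3, numba 0.67.0 and matplotlib 3.10.9 were used. Other pseudocounts, filters, folds, scalings and left-out libraries were tried. Some members of the lists are counted but not reported here by name.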

Additional observations from a re-analysis of the deposited data

How the results depend on the processing

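The 1377 entries over 2-fold higher in PRC1deg and the 1416 entries over 2-fold lower in PRC1deg changed in number with the limits by construction: a fold of 1.5 gave 3262 and 2662, a fold of 4 gave 140 and 385, 500 or more reads in either line gave 600 and 792, and 50 added reads gave 897 higher. Other scalings gave 1275 to 1652 higher and 1226 to 1503 lower. Over the 18294 separable entries with libraries weighted alike 1295 were past the limit (entries over 2-fold higher in PRC1deg, split entries) on one side and 1207 on the other (entries over 2-fold lower in PRC1deg, split entries). With each library in turn left out, a setting chosen after seeing the data, the ranges were 1182 to 1403 and 1137 to 1380. Among 2510 recomputed values of single genes and list medians, 2467 stayed on their side of 2-fold, 27 fell within it, 16 passed it and 0 changed sign past it. Those 27 and 16 changes came from other pseudocounts, filters and scalings, not from left-out libraries. Leaving out 1 library moved further named genes across 2-fold: Ring1 ranged from 0.998 to 1.31, Vim from -1.33 to -0.92 and Bmi1 from -1.05 to -0.75. No paired analysis was possible because the tables hold 1 mean per line and the separated libraries carry no replicate number. Ratios by chromosome and by promoter CpG were planned and not run, since no mouse annotation was used here.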

Other observations

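After the authors' spike-in normalisation, the separated entries of the 3 untreated PRC1deg libraries summed to values 1.44 and 2.92 times that of the lowest library, and those of PRC2deg to 1.09 and 1.24 times. The third PRC1deg library therefore made up 54.5% of the authors' PRC1deg mean, the second 26.8% and the first 18.7%. Among entries with 1 or 2 reads in a library, 76.5% to 85.3% had 2.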
